A study of Mus musculus with 9 samples.

Results

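The noncoding host genes of small nucleolar RNAs (snoRNAs) were examined in mouse osteosarcoma (OS). The set held 9 genes taken by symbol from the 55367 genes of the deposited count table, namely *Gas5*, *Snhg1*, *Snhg3*, *Snhg4*, *Snhg5*, *Snhg6*, *Snhg8*, *Snhg12* and *Snhg15*. Whole spontaneous tumors of genetically engineered mouse models (GEMMs) had been profiled by RNA-Seq, to ask how hyperactive MYC alters OS. The p53-driven group (4 tumors) had the genotype Col2.3-Cre/TrpP53fl/+, and the *Myc*-knockin group (5 tumors) had Cre with Lox-Stop-Lox;(LSL)-c-MycT58A, together with p53fl/+. Both groups therefore carried Cre and 1 floxed *Trp53* allele, and the *Myc*-knockin tumors carried in addition a Cre-activated *Myc* with the T58A substitution. Cre was driven by the osteoblast-specific Col2.3 promoter, so that the alleles were altered in osteoblasts while the other cells of the tumor were not targeted. The ages at which these tumors were taken were not used here.

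Depth differed among the libraries. Total counts were 3026217 in F187, 10593069 in F325, 9498026 in F331 and 6853293 in F368 of the p53-driven group. In the *Myc*-knockin group they were 2716322 in M351, 4295475 in M408, 3532881 in M9, 17073285 in M624 and 15769788 in M664. A pair of *Myc*-knockin libraries, M624 and M664, stood apart in RNAs without poly(A) tails. *Rn7sk*, a small nuclear RNA of that kind, measured 3.47 CPM in M624 and 6.35 CPM in M664, against 6545 to 10667 CPM in the other 7 libraries. The pair also differed in the sum of 5 red cell markers, at 216 (M624) and 783 (M664) CPM but no more than 26.7 CPM elsewhere. This difference lay in the globin genes of the list. The 1 marker that passed the filter on low counts is not a globin. It was 8.69 CPM in M624 and 19.7 CPM in M664, against 26.7 CPM in M408. CPM here are scaled to the library size after TMM normalization. A second set of 4 libraries held many reads on 12 satellite-repeat genes, which took 44.3% of the counts in F187, 67.9% in M351, 23.2% in M408 and 81.0% in M9. Results for the host genes are therefore given for all 9 tumors and again without M624 and M664, and their number of calls also without the satellite libraries. Without M624 and M664 every *Myc*-knockin library left was a satellite library, against F187 alone in the p53-driven group. Without the satellite libraries, M624 and M664 alone made up the *Myc*-knockin group. No fit compared the genotypes within a single type of library, so genotype and library type cannot be told apart in these refits.

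Osteoblast markers were present in both groups. Counts were found for all 10 genes of the marker list, except *Bglap* and *Bglap2* in M408 and *Bglap2* in M624. Their summed level, led by *Col1a1*, was 65477, 136706, 133579 and 141257 CPM in F187, F325, F331 and F368, and 16034, 9763, 18902, 3610 and 41295 CPM in M351, M408, M9, M624 and M664. The groups did not overlap in this sum. Of the 10 genes, 2 were called lower in *Myc*-knockin tumors (4 without M624 and M664), beside 461 of all 15365 genes tested (402 of 14308). In 5 of the 10 every *Myc*-knockin tumor lay below every p53-driven tumor, beside 1158 of all genes tested, and in the rest the groups overlapped. The 6 osteoclast markers, led by *Ctsk*, summed to 1386 to 8110 CPM in the p53-driven tumors and 59.0 to 920.0 CPM in the *Myc*-knockin tumors, with 5 called lower and *Dcstamp* at 0 in M408. The 8 macrophage markers, led by *Csf1r*, summed to 682 to 1174 CPM and 231 to 803 CPM, with 2 called lower and none at 0 in any tumor. In the other direction, 2 of the 8 had log2 fold changes above 0 over all tumors (0.17 and 0.56), neither called. Without M624 and M664 none of the 8 was above 0. Fewer cells of a type and less RNA per cell cannot be told apart in whole tumors, and the part of these cell types in the results on the host genes was not tested.

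snoRNAs guide the chemical modification of ribosomal and spliceosomal RNAs, box C/D snoRNAs directing 2′-O-methylation and box H/ACA snoRNAs directing pseudouridylation, and a few are needed for the cleavage of the ribosomal RNA precursor. In mammals most of them are cut out of introns, and some of the genes that carry them code for no protein. The spliced RNAs of such hosts are commonly short-lived in the cytoplasm, where their translation exposes them to nonsense-mediated decay, and many begin with a tract of pyrimidines, as do the mRNAs of ribosomal proteins. MYC is a general activator of ribosome synthesis.

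All 8 host genes that could be tested had higher fitted levels in the *Myc*-knockin tumors. A gene was called at an edgeR adjusted p (Benjamini-Hochberg over the 15365 genes tested) under 0.05 and a fold change over 1.5. By this rule 3 of the 8, *Snhg4*, *Snhg5* and *Snhg12*, were called higher (37.5%), against 2.26% of all genes tested. In 4 of the 8, these 3 and *Snhg15*, every *Myc*-knockin tumor lay above every p53-driven tumor, which held for 5.41% of all genes tested. The median log2 fold change of the 8 genes was 1.35, beside 0.14 over all genes tested. Without M624 and M664 the same 3 genes were called out of 8, against 1.80% of the 14308 genes tested then, and the median was 1.06 beside 0.08. The ninth gene, *Snhg3*, did not pass the filter on low counts.

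The p-values measure the spread between tumors, and the calls depended on which tumors entered. No host gene was called by edgeR when F325, F331 or F368 was left out, and then 8, 6 and 5 genes were called in the whole table, although 6, 7 and 6 of the 8 hosts had an unadjusted p under 0.05. *Snhg4* alone was called without F187 (335 genes in all). Without M9, the library with most satellite reads, 6 of the 8 were called. In that fit 1588 genes were called in all, 923 higher and 665 lower, of 15315 tested. Without all 4 satellite libraries, 7 of the 8 were called, between 3 p53-driven tumors and M624 and M664 alone. There 4595 genes were called in all, 2594 higher and 2001 lower, of 16495 tested.

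*Gas5*, first found as an RNA that accumulates in growth-arrested cells and known to bind the glucocorticoid receptor, holds 9 snoRNA genes, all box C/D in kind. Its level was 48.6, 40.1, 39.0 and 39.1 CPM in F187, F325, F331 and F368 of the p53-driven group. It was 103, 74.4, 45.4, 112 and 124 CPM in M351, M408, M9, M624 and M664. All but M9 of the *Myc*-knockin tumors lay well above the p53-driven range, and M9 fell between F187 and the other p53-driven tumors. The means were 91.6 ± 31.6 (SD, n = 5) and 41.7 ± 4.60 CPM (SD, n = 4). The log2 fold change was 1.14 ± 0.31 (SE), with an edgeR adjusted p of 0.0556, so that *Gas5* missed the call. Without M624 and M664 it was 0.89 ± 0.29 (edgeR adjusted p = 0.103). The gene passed the thresholds in 7 of 20 alternatives, among them subtraction of the estimated genomic background (edgeR adjusted p = 0.0322) and the fit without M9 (edgeR adjusted p = 0.0202). The adjusted p of edgeR and the other tools ranged from 0.00927 to 0.381.

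*Snhg1*, the host of 8 box C/D snoRNA genes that include *Snord22*, a snoRNA needed for processing of 18S ribosomal RNA, had the second highest mean CPM in both groups. It measured 23.7, 13.1, 16.1 and 16.05 CPM in F187, F325, F331 and F368, and 46.8, 45.8, 19.9, 27.8 and 65.4 CPM in M351, M408, M9, M624 and M664. The groups overlapped through M9, which lay under F187. The log2 fold change of 1.27 ± 0.37 (SE) was not called (edgeR adjusted p = 0.0646), and it was 1.21 ± 0.35 without M624 and M664 (edgeR adjusted p = 0.0773). The exact permutation test, two-sided over all arrangements of the 9 tumors, gave p = 0.0317 for *Snhg1* and the same value for *Gas5*.

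*Snhg5* carries *Snord50a* and *Snord50b*, box C/D snoRNAs, and its human counterpart was found at a chromosomal breakpoint in lymphoma. It was 7.50, 14.7, 11.5 and 9.85 CPM in F187, F325, F331 and F368. In M351, M408, M9, M624 and M664 it was 24.6, 25.6, 21.5, 36.9 and 38.3 CPM. The lowest *Myc*-knockin tumor, M9, exceeded the highest p53-driven tumor, F325, and M624 and M664 were the highest of all. *Snhg5* rose by a log2 fold change of 1.43 ± 0.31 (SE, edgeR adjusted p = 0.0320), and the 7 tumors without M624 and M664 gave 1.18 ± 0.27 (edgeR adjusted p = 0.0455).

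*Snhg6*, which holds the box C/D snoRNA gene *Snord87*, followed another pattern. It was 5.13, 7.23, 8.13 and 6.32 CPM in F187, F325, F331 and F368, and 13.5, 9.16, 1.59, 37.7 and 51.1 CPM in M351, M408, M9, M624 and M664. The high values were those of M624 and M664, while the other *Myc*-knockin tumors fell on both sides of the p53-driven range. The log2 fold change went from 1.78 ± 0.71 (SE, edgeR adjusted p = 0.137) in 9 tumors to 0.36 ± 0.54 (edgeR adjusted p = 0.702) without this pair. *Snhg6* passed the thresholds in 2 of 19 alternatives. These were the fits without M9 (2.06, edgeR adjusted p = 0.0386) and without the 4 satellite libraries (2.64, edgeR adjusted p = 0.00626). In the latter M624 and M664 were the only *Myc*-knockin tumors, so that genotype and library type cannot be told apart. The value of M9 rested on 2 counts, whose 95% exact Poisson interval runs from 0.193 to 5.76 CPM, and 1.42 counts of genomic background were estimated for the gene there. Such intervals cover counting error only.

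In 9 tumors and without M624 and M664, the largest fold change among the hosts was that of *Snhg4*. Without the 4 satellite libraries the log2 fold changes of *Snhg6* (2.64) and *Snhg12* (2.52) exceeded that of *Snhg4* (2.17). M624 and M664 were then the only *Myc*-knockin tumors, so that genotype and library type cannot be told apart there. *Snhg4* holds the box H/ACA snoRNA gene *Snora74a*, also known as U19. It was 4.74, 3.11, 4.24 and 4.01 CPM in F187, F325, F331 and F368, and 35.1, 21.6, 13.5, 16.7 and 17.0 CPM in M351, M408, M9, M624 and M664. Each *Myc*-knockin tumor was above each p53-driven tumor, and the highest were M351 and M408 rather than M624 and M664. *Snhg4* rose by a log2 fold change of 2.37 ± 0.37 (SE, edgeR adjusted p = 0.0176) and by 2.62 ± 0.36 without M624 and M664 (edgeR adjusted p = 0.0241). With 4666 exon bases it was the member with the most background counts expected, estimated at 34.1% of its 17 counts in M9, 9.19% of 57 in M351 and 27.6% of 12 in F187. After the background was subtracted, its log2 fold change was 2.51 (edgeR adjusted p = 0.0154).

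*Snhg12* carries both kinds of snoRNA, with *Snora16a*, *Snora44*, *Snora61* and the box C/D gene *Snord99*. It was 4.74, 5.37, 4.24 and 6.20 CPM in F187, F325, F331 and F368, and 19.1, 11.9, 14.3, 36.1 and 23.4 CPM in M351, M408, M9, M624 and M664. The groups lay apart, with the lowest *Myc*-knockin tumor M408 above the highest p53-driven tumor F368. *Snhg12* rose by a log2 fold change of 2.04 ± 0.39 (SE, edgeR adjusted p = 0.0243), and by 1.59 ± 0.30 without M624 and M664 (edgeR adjusted p = 0.0347). In *Snhg4*, *Snhg5*, *Snhg12* and *Snhg15* the permutation test gave p = 0.0159 over 9 tumors, the smallest it can give, and 0.0571 over the 7 tumors, again the smallest possible.

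*Snhg15* and *Snhg8* each hold a single box H/ACA snoRNA gene, *Snora9* and *Snora24*. *Snhg15* was 7.90, 3.97, 3.81 and 5.96 CPM in F187, F325, F331 and F368, and 9.23, 10.99, 8.76, 12.3 and 17.4 CPM in M351, M408, M9, M624 and M664. The groups did not overlap, yet the gap between F187 and M9 was narrow, and the log2 fold change of 1.16 ± 0.38 (SE) was not called (edgeR adjusted p = 0.0895). *Snhg8* was 6.71, 6.38, 5.02 and 5.59 CPM in the p53-driven tumors, and 15.4, 8.24, 4.78, 7.81 and 10.8 CPM in M351, M408, M9, M624 and M664. It differed least of the 8 over 9 tumors, with M9 under all p53-driven tumors and a log2 fold change of 0.67 ± 0.39 (SE, edgeR adjusted p = 0.301). The 7 tumors gave 0.94 ± 0.39 for *Snhg15* (edgeR adjusted p = 0.169) and 0.74 ± 0.42 for *Snhg8* (edgeR adjusted p = 0.287).

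*Snhg3*, whose snoRNAs *Snora73a* and *Snora73b* are the U17 RNAs that act in cleavage of the ribosomal RNA precursor, was hardly counted. It had 1 count in F368, 1 in M408, 18 in M624, 14 in M664 and none in the other 5 tumors. M624 and M664 were thus at 0.686 and 0.605 CPM, above their floors of 3 counts at 0.114 and 0.130 CPM, while all others were at or under their floor, and no fold change is given. The annotation leaves *Snhg3* few bases of its own. Of its 986 exon bases only 135 are not shared with another gene, and a read that touches several genes may have been left uncounted, a setting not given in the sources used here.

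**Figure D1:**
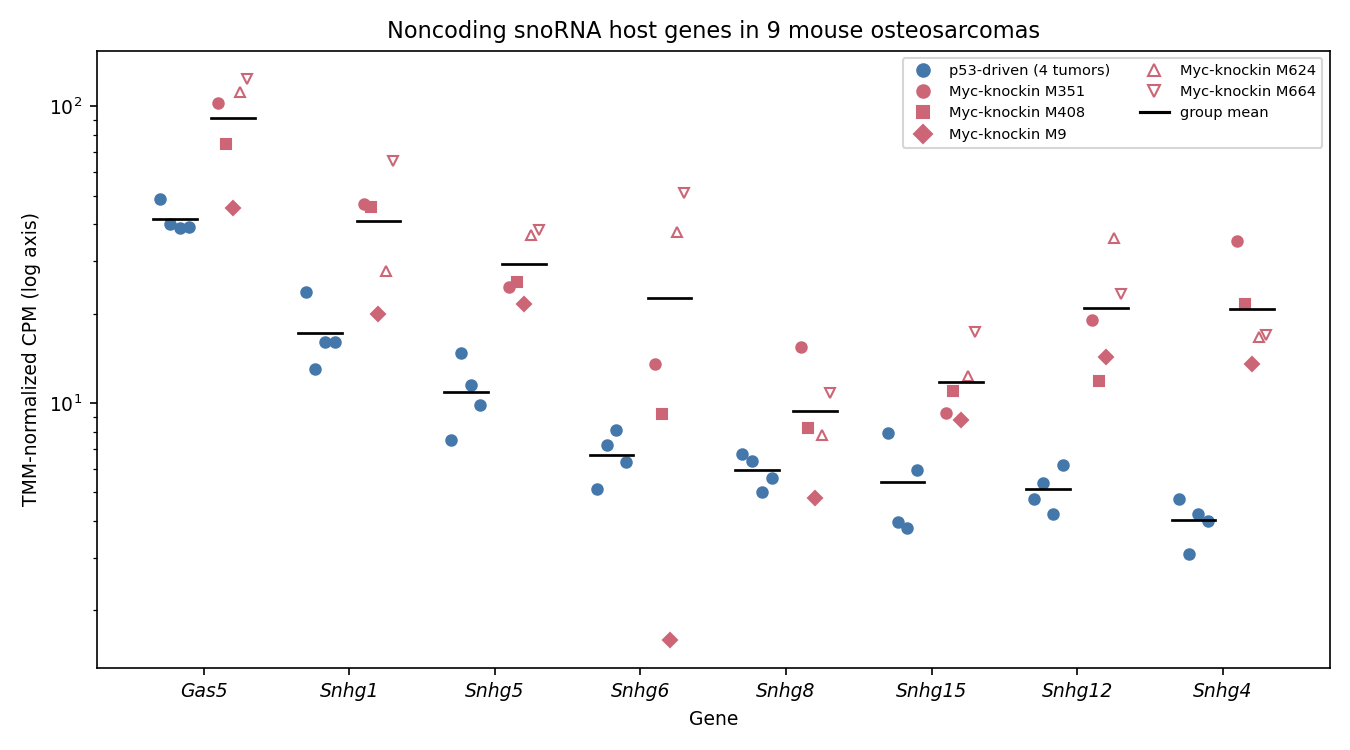
TMM-normalized CPM (log axis) of the 8 tested host genes in each tumor, with p53-driven tumors in blue, *Myc*-knockin tumors in red, M624 and M664 as open symbols and group means as black lines. *Snhg4*, *Snhg5*, *Snhg12* and *Snhg15* show no overlap between groups, M9 lies lowest of the *Myc*-knockin tumors in 7 of the 8 genes, and the *Snhg6* mean of 22.6 CPM is carried by M624 and M664.

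**Figure D2:**
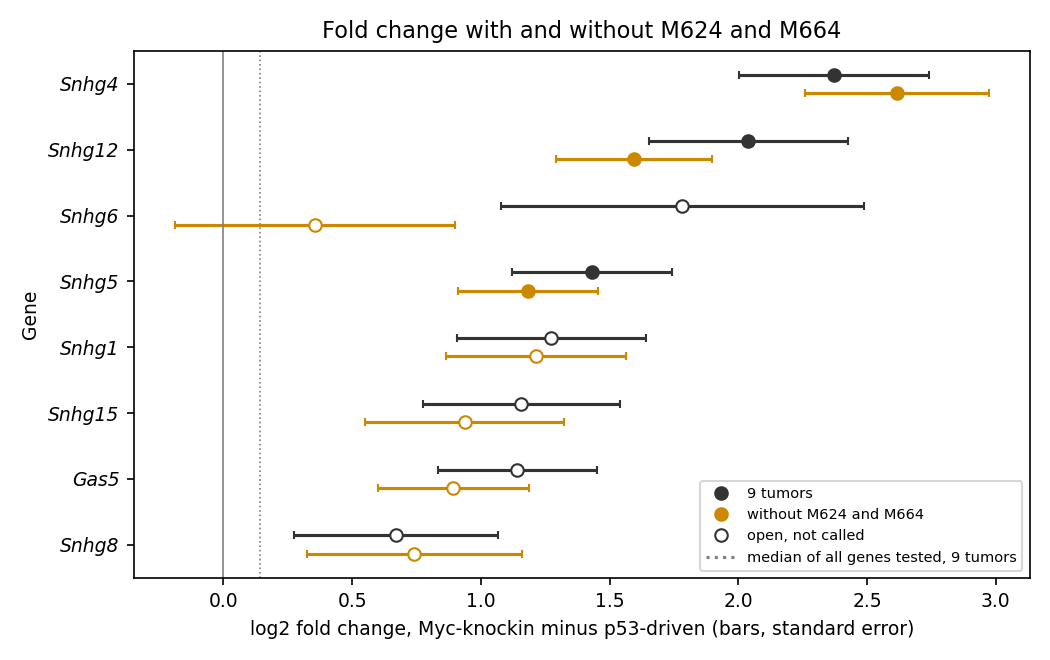
Log2 fold change (*Myc*-knockin minus p53-driven) of the 8 tested host genes with its standard error, in 9 tumors (black) and without M624 and M664 (orange), where filled points were called by edgeR. The points lie right of 0, the dotted line marks the median of all genes tested (0.14), and *Snhg6* moves from 1.78 to 0.36.

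Some tumors held a similar place from gene to gene while others did not, and agreement in order was not tested. F187 was the highest p53-driven tumor for 5 tested hosts and the lowest for 2. Over the 8 tested hosts M664 was the highest of the 9 tumors for 5 genes, M351 for 2 (*Snhg4* and *Snhg8*) and M624 for 1 (*Snhg12*). M9 was the lowest *Myc*-knockin tumor for 7, with M408 lowest for *Snhg12*, and 4 of its 8 values exceeded every p53-driven tumor, compared with 8 of 8 in M351, M408, M624 and M664. M9 had 2 to 57 counts on each of these genes, M664 250 to 2866. Summed over the 9 members, the level was 109.0, 94.0, 92.0 and 93.2 CPM in F187, F325, F331 and F368, and 266.5, 207.9, 129.9, 287.7 and 347.7 CPM in M351, M408, M9, M624 and M664. *Myc* itself was 269.6, 520.3, 144.2, 1045 and 905 CPM in the same *Myc*-knockin tumors and 43.5 to 67.1 CPM in the p53-driven tumors, so M9 was the lowest *Myc*-knockin tumor in both quantities.

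Levels per kilobase used exon bases merged over isoforms, which took in 4666 of the 4946 bases of *Snhg4* but 1359 of the 3170 of *Snhg15*. The order by this measure therefore depends on which isoforms are annotated. *Gas5* had the highest group mean per kilobase of exon in both groups, although *Snhg6* exceeded it in M624 and M664 and *Snhg5* in M9. Its level was 24.4 ± 8.41 CPM per kilobase (SD, n = 5) in *Myc*-knockin and 11.1 ± 1.22 (SD, n = 4) in p53-driven tumors. In the p53-driven tumors *Snhg8*, *Snhg5*, *Snhg6* and *Snhg1* followed at 6.95 to 5.80 CPM per kilobase with overlapping ranges, and *Snhg15* at 3.98, whose range overlapped that of *Snhg1*. *Snhg12* at 2.14, *Snhg4* at 0.863 and *Snhg3* at 0.0308 CPM per kilobase were each apart from their neighbors. In the *Myc*-knockin tumors the order was *Gas5*, *Snhg6*, *Snhg5*, *Snhg1*, *Snhg8*, *Snhg12*, *Snhg15* and *Snhg4*, from 24.4 to 4.45 CPM per kilobase, where each gene overlapped the next and the place of *Snhg6* rested on M624 and M664, and *Snhg3* at 0.299 was below the range of *Snhg4*. *Gas5* supplied 42.9% ± 1.14 of the members' summed CPM in p53-driven tumors (SD, n = 4) and 36.7% ± 1.81 in *Myc*-knockin tumors (SD, n = 5). *Snhg4* went the other way, from 4.14% ± 0.569 to 8.93% ± 3.48 with the same n.

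The hosts lie on 7 chromosomes of mm10. The table lists *Gas5* as ENSMUSG00000053332, on chromosome 1 from 161034422 to 161038539, and *Snhg6* on the same chromosome from 9941959 to 9944118. *Snhg12* and *Snhg3* are on chromosome 4, from 132308623 to 132311024 and from 132348014 to 132353686, with 37.0 kb between them. *Snhg1* is on chromosome 19 from 8723475 to 8726443, *Snhg5* on chromosome 9 from 88521050 to 88522929 and *Snhg8* on chromosome 3 from 123507552 to 123508404. *Snhg15* is on chromosome 11 from 6525591 to 6528760, and *Snhg4* (ENSMUSG00000117869) on chromosome 18 from 35553371 to 35558316.

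Of the genes that overlap a host or start within 1 kb of it, 5 were tested, beside *Gas5*, *Snhg1*, *Snhg3* and *Snhg6*, and none was called by edgeR, as none of these hosts was. *Zbtb37*, a zinc finger gene that starts 427 bases from *Gas5* on the other strand, was 42.0 ± 9.14 CPM in p53-driven tumors (SD, n = 4) and 25.0 ± 13.1 CPM in *Myc*-knockin tumors (SD, n = 5). Its log2 fold change was -0.78 ± 0.44 (SE, edgeR adjusted p = 0.285), opposite in sign to that of *Gas5*, and -0.28 without M624 and M664 (edgeR adjusted p = 0.519), which were the lowest at 17.6 and 6.43 CPM. *Slc3a2*, the heavy chain of amino acid transporters, starts 106 bases from *Snhg1* on the other strand and had 0.57 ± 0.44 (SE, edgeR adjusted p = 0.435). It was 147 and 132 CPM in M624 and M664 and 36.3 to 62.4 CPM in the other 7 tumors, so its high values were in those 2 libraries, and without them it had -0.28 (edgeR adjusted p = 0.480). *Rcc1*, the nucleotide exchange factor of Ran, starts 81 bases from *Snhg3* on the same strand and shares 135 exon bases with it. *Rcc1* was 17.8 to 24.8 CPM in p53-driven tumors and 23.9 to 111 CPM in *Myc*-knockin tumors, and its log2 fold change of 1.61 ± 0.45 (SE) was not called (edgeR adjusted p = 0.0581). Its highest values were again those of M624 and M664, and without them it had 0.83 (edgeR adjusted p = 0.110). *Gm17300*, antisense to *Snhg3*, and *Mcmdc2*, which shares 127 exon bases with *Snhg6* on the other strand, were at 0.77 ± 0.60 and 0.63 ± 0.69 (SE, edgeR adjusted p = 0.445 and 0.588), and at 1.03 and 0.97 without the pair (edgeR adjusted p = 0.339 and 0.395). Reads on such shared bases cannot be assigned to a strand, since the strand setting of the counting was not given in the sources used here.

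The snoRNAs themselves were almost uncounted. The annotation places 29 snoRNA genes inside the 9 hosts, and 28 had no count in any tumor. The exception was *Snord87* in *Snhg6*, with 1, 1, 5 and 2 counts in F187, F325, F331 and F368 and 3, 2, 1, 4 and 2 counts in M351, M408, M9, M624 and M664, too few to test. Per 100 counts on *Snhg6* this was 1.08 to 7.69 in the p53-driven tumors, 13.6, 4 and 50 in M351, M408 and M9, and 0.404 and 0.169 in M624 and M664. Of the 29 genes, 27 touch an annotated exon of their host, because isoforms that keep an intron are annotated, and *Snord87* does not. *Snora73b*, the other gene outside its host's exons, lies in an exon of another gene. Over the whole table, 12.8% of 188 snoRNA genes that touch an exon of another gene on their strand had any count, against 57.0% of the 1293 that touch none, so that these zeros say nothing about the abundance of the snoRNAs. The exons of *Snhg1*, *Snhg8* and *Snhg12*, merged over isoforms, cover the whole gene. They cover 3760 of 4118 bases in *Gas5*, 4666 of 4946 in *Snhg4* and 1730 of 1880 in *Snhg5*. Spliced and unspliced RNA of these hosts were counted together over the bases covered.

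**Figure D3:**
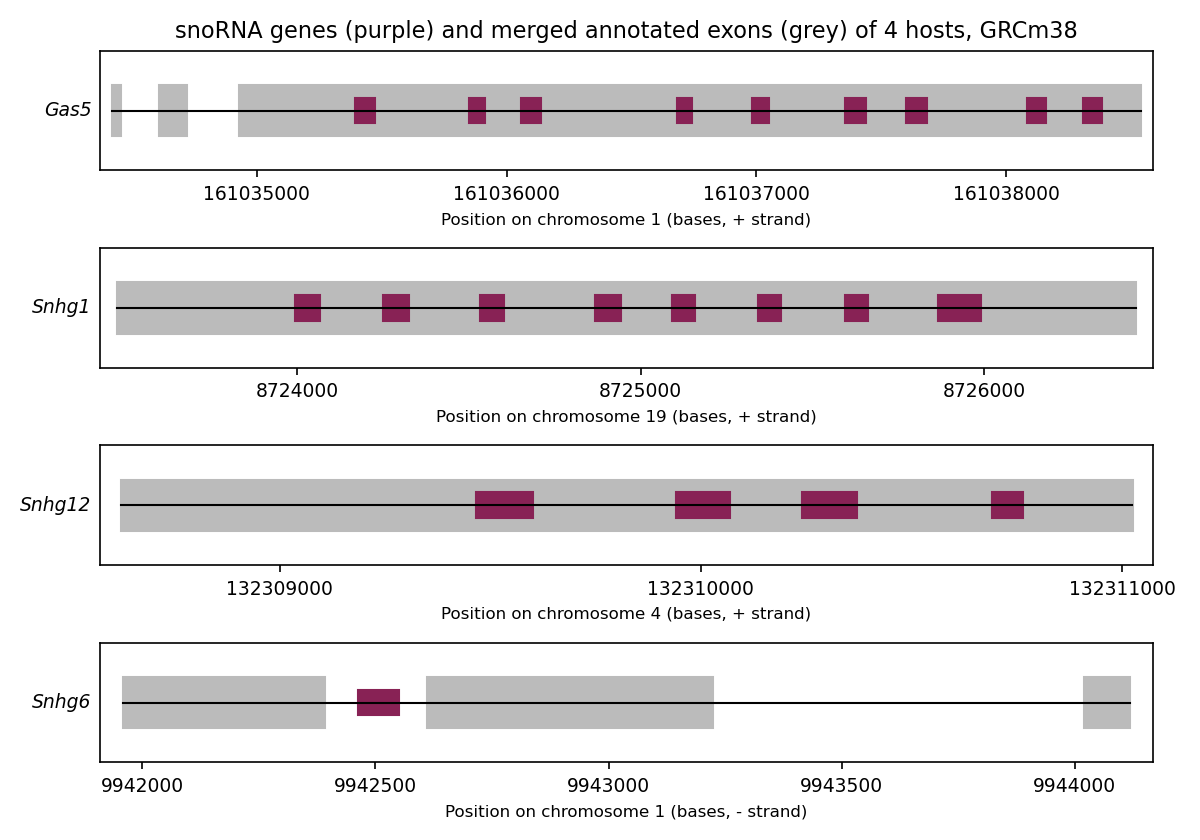
Maps of 4 hosts to scale, with position in bases (GRCm38, GENCODE M21) on each horizontal axis, exons merged over isoforms in grey and snoRNA genes in purple. The snoRNA genes of *Gas5* (9), *Snhg1* (8) and *Snhg12* (4) lie inside merged exons, whereas *Snord87* in *Snhg6* lies between exons.

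*Snord87* is shown as the intronic snoRNA that was counted, and *Snord50a*, *Snord50b* and *Snord99* as snoRNAs of the called hosts *Snhg5* and *Snhg12*. The sequences are those of GENCODE M21, 5′ to 3′. Capitals mark a C box (TGATGA in the first 20 bases) and a D box (CTGA in the last 20), which 16 of the 28 snoRNA genes read from the hosts hold together, and 20.7% of the 1481 snoRNA genes in the table. *Snord50a* and *Snord50b* differ at 1 of 72 bases, so that their reads could hardly be kept apart. *Snord87* lies at chr1:9942463-9942549 (− strand), *Snord50a* at chr9:88521529-88521600 (−), *Snord50b* at chr9:88521797-88521868 (−) and *Snord99* at chr4:132310691-132310764 (+).
Snord87: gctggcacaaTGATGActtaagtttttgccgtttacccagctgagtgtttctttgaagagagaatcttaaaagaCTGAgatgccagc
Snord50a: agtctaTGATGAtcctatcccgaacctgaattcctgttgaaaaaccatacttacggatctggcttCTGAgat
Snord50b: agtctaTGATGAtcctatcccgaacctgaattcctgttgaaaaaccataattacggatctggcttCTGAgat
Snord99: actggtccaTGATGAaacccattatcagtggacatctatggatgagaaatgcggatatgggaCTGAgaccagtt

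Of 13 other noncoding snoRNA hosts 10 were tested, and 4 were called higher and none lower by edgeR, with a median log2 fold change of 1.69, and without M624 and M664 1 of 9 was called. Over all genes tested, 2.26% were called higher with a median of 0.14, and 1.80% without the pair with a median of 0.08. *Snhg14*, the long transcript of the Prader-Willi region, rose by 2.35 ± 0.52 (SE, edgeR adjusted p = 0.0332), from 3.07 ± 2.45 (SD, n = 4) to 14.7 ± 3.92 CPM (SD, n = 5), and was not called without M624 and M664 (2.27, edgeR adjusted p = 0.0617). Its estimated background was 18.5 of 17 counts in F187, 29.3 of 30 in M351 and 32.4 of 17 in M9, so that these 3 values are at background. *Snhg20* had 2.36 ± 0.73 (SE) without a call (edgeR adjusted p = 0.0755), and 1.23 without the pair (edgeR adjusted p = 0.247). *Snhg18* stood opposite to all 8 tested members. It was 60.7 ± 12.1 CPM in p53-driven (SD, n = 4) and 17.3 ± 12.4 CPM in *Myc*-knockin tumors (SD, n = 5), with every *Myc*-knockin tumor lower and a log2 fold change of -1.85 ± 0.55 (SE, edgeR adjusted p = 0.0682). *Snhg11*, whose annotated biotype is protein-coding although it was listed here, was at 0.66 ± 0.86 (SE, edgeR adjusted p = 0.655).

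Of the 42 protein-coding snoRNA hosts, 3 were called higher and none lower by edgeR, and their median log2 fold change was 1.07, with 1 of 41 called and a median of 0.72 without M624 and M664. These are 7.14% and 2.44%, beside 2.26% and 1.80% of all genes tested. *Rpl23a*, a protein of the large ribosomal subunit, had the largest called change at 2.96 ± 0.60 (SE, edgeR adjusted p = 0.0266), and was at 0.554 ± 0.235 CPM (SD, n = 4) against 4.45 ± 0.928 CPM (SD, n = 5). It had 1 to 9 counts in the p53-driven tumors, and it did not pass the filter without M624 and M664. *Rps2* had 3.73 ± 1.16 (SE, edgeR adjusted p = 0.0757) and came to 0.32 without M624 and M664 (edgeR adjusted p = 0.511). At the other end *Eif4g2* and *Eif4a2*, translation initiation factors, were at -0.19 ± 0.35 and -0.02 ± 0.24 (SE, edgeR adjusted p = 0.769 and 0.973).

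The proteins that bind the snoRNAs were measured beside their hosts. Of 8 core proteins 2 were called higher, of 10 assembly factors 4, and none lower by edgeR, with median log2 fold changes of 1.21 and 1.42, where 2.26% of all genes tested were called higher. *Fbl*, the 2′-O-methyltransferase of box C/D particles, rose by 3.47 ± 0.63 (SE, edgeR adjusted p = 0.0218), from 3.12 ± 0.520 CPM (SD, n = 4) to 34.2 ± 29.0 CPM (SD, n = 5). Without M624 and M664 it rose by 2.27 (edgeR adjusted p = 0.0272), to 14.6 ± 4.73 CPM (SD, n = 3). The estimated background of *Fbl* was 2.99 of 7 counts in F187, 4.73 of 32 in M351 and 5.23 of 13 in M9. *Nhp2*, a box H/ACA protein, had 2.56 ± 0.67 (SE, edgeR adjusted p = 0.0511), and 1.34 without the pair (edgeR adjusted p = 0.117). *Gar1* and *Nop10*, box H/ACA proteins with the smallest changes of the core list, had 1.01 ± 0.28 and 0.77 ± 0.27 (SE, edgeR adjusted p = 0.0601 and 0.105). The remaining box H/ACA protein, *Dkc1*, was called higher at 1.17 ± 0.29 (SE, edgeR adjusted p = 0.0450). It was not called without M624 and M664 (1.16, edgeR adjusted p = 0.0684). Among assembly factors *Ruvbl2*, an AAA ATPase, rose by 2.30 ± 0.56 (SE, edgeR adjusted p = 0.0429) but was not called without M624 and M664 (1.39, edgeR adjusted p = 0.0744). *Znhit3* had 2.48 ± 0.74 (SE, edgeR adjusted p = 0.0683), and 1.49 without the pair (edgeR adjusted p = 0.255), while *Znhit6* and *Rpap3* had 0.59 ± 0.27 and 0.30 ± 0.32 (edgeR adjusted p = 0.188 and 0.588). Without M624 and M664, 1 core protein and 1 assembly factor were called, against 1.80% of all genes tested.

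The 10 factors of nonsense-mediated decay, the pathway that degrades many host RNAs, had a median log2 fold change of 0.23 with 6 above 0 and none called by edgeR in either direction. Over all genes tested the median was 0.14, with 56.2% above 0 and 2.26% called higher. *Upf1*, the helicase of the pathway, had 0.83 ± 0.42 (SE, edgeR adjusted p = 0.229) and *Smg8* 0.54 ± 0.29 (edgeR adjusted p = 0.261), while *Upf2* was at -0.31 ± 0.30 (edgeR adjusted p = 0.530). Without M624 and M664 the median was 0.03 with 5 of 10 above 0, and *Upf1* was at 0.18 (edgeR adjusted p = 0.670). The 14 translation genes whose mRNAs begin with a pyrimidine tract, like those of hosts, had a median of 1.32, with 2 called higher by edgeR (14.3%, beside 2.26% of all genes tested) and none lower. *Npm1*, a nucleolar chaperone, rose by 2.27 ± 0.33 (SE, edgeR adjusted p = 0.0160) and *Hnrnpa1*, a splicing factor, by 1.59 ± 0.40 (edgeR adjusted p = 0.0468), the latter not called without M624 and M664 (1.12, edgeR adjusted p = 0.0912). *Eif3e* and *Pabpc1* had 0.61 ± 0.34 and 0.34 ± 0.39 (edgeR adjusted p = 0.274 and 0.611). Without M624 and M664 the median of this list was 0.58 and 1 of 14 was called, against 1.80% of all genes tested.

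The genes nearest to the hosts in profile were found by the root mean square difference of log2 CPM, each gene centered on its own mean over the 9 tumors, from the mean centered profile of the 8 tested hosts. That mean profile was lowest in F331 (-0.79), -0.34 in M9, and highest in M664 (1.15). Among 9533 other tested genes with a mean of at least 10 CPM, the closest were *Rrp15* (0.162) and *Pwp2* (0.217), factors of ribosomal RNA processing, *Sgf29* (0.183), a reader of histone methylation, *Exosc1* (0.202), a subunit of the RNA exosome, and *Eef1b2* (0.222), a translation elongation factor that is itself a listed snoRNA host. Of the members, *Gas5* was closest to their mean (0.141) and *Snhg6* farthest (0.942). *Rrp15*, for example, was 12.2 to 15.8 CPM in the p53-driven group, 20.7 CPM in M9 and up to 54.1 CPM (M624) in the *Myc*-knockin group.

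The starts of the hosts are shown because these genes are known for pyrimidine tracts there. RefSeq promoters (GRCm38.p6), which run from 250 bases before to 50 after a start, were used for 7 hosts, with 2 for *Gas5*, none was matched for *Snhg6*, and *Snhg4* and its snoRNA were not read for sequence. Each sequence below is 100 bases, 50 on each side of the start, on the strand of the gene. Capitals mark a run of at least 5 pyrimidines (C or T) that begins between 3 bases before the start and base 10, read on the gene's strand alone. Such a run was in 6 of these 8 promoters and in 24.6% of all 32851. The windows are chr1:161034551-161034650 (+) and chr1:161035116-161035215 (+) for *Gas5*, chr19:8723437-8723536 (+) for *Snhg1*, chr4:132308628-132308727 (+) for *Snhg12*, chr11:6528711-6528810 (−) for *Snhg15*, chr4:132353637-132353736 (−) for *Snhg3*, chr9:88522848-88522947 (−) for *Snhg5* and chr3:123508287-123508386 (−) for *Snhg8*.
Gas5, first start: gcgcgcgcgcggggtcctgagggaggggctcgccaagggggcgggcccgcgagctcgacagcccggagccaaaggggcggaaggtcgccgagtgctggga
Gas5, other start: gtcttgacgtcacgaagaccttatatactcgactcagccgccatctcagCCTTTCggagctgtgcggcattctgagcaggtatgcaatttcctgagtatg
Snhg1: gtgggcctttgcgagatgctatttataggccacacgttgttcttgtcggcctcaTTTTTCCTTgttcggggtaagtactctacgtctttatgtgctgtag
Snhg12: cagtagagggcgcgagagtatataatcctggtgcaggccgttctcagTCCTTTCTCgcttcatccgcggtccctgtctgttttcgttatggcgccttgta
Snhg15: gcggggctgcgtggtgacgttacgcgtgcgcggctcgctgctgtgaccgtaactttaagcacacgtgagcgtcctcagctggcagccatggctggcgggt
Snhg3: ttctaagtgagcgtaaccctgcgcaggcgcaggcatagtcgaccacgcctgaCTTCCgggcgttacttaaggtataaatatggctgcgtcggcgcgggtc
Snhg5: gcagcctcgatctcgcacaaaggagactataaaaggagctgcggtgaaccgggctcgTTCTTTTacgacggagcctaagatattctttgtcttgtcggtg
Snhg8: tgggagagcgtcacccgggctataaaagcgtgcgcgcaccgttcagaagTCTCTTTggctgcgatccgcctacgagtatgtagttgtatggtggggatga

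The run spans or touches the start in *Snhg12* (9 bases), *Snhg8* (7) and the other start of *Gas5* (6), begins at base 5 in *Snhg1* (9), at base 8 in *Snhg5* (7) and at base 3 in *Snhg3* (5), and was not found in *Snhg15* or at the first *Gas5* start. The palindrome CACGTG, an E-box that MYC and other factors can bind, was in 1 of the 8 promoters, that of *Snhg15* at base 12 after the start, and in 7.15% of all promoters. TATAAA beginning 35 to 20 bases before the start, searched on the gene's strand, was in 2 of the 8, at 30 bases before it in *Snhg8* and 23 in *Snhg5*, and in 1.84% of all. TGACGTCA, a palindrome known as the cyclic AMP response element, was in 2 of the 8, at 46 bases before the other *Gas5* start and 88 before that of *Snhg15*, and in 1.79% of all. CCAAT or its reverse complement ATTGG was in 3 of the 8 and in 37.4% of all. GGGCGG or CCGCCC was in 6 of the 8 and in 35.7% of all. These matches describe letters in the windows and are not measured binding sites.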

How the data were processed

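The counts per gene are those deposited by the authors, whose processing notes name Trim Galore, STAR, mm10 and featureCounts. Strand and multi-mapping settings are not given in the sources used here. Columns were placed in groups by the letters F and M, and no column was tied to a numbered sample. The names F187, F325, F331, F368, M408 and M624 are also listed under the same genotype in the authors' supporting data. The group of M351, M9 and M664 rests on the letter alone. The members and gene lists were chosen with earlier results of these data known. Counts were tested in R 4.3.3 with edgeR 4.0.16 (glmQLFit, glmQLFTest, TMM, filterByExpr with a minimum count of 10) over the whole table, and adjusted by Benjamini-Hochberg. Log2 CPM used a prior count of 2. Permutation tests compared mean log2 CPM, doubling the smaller tail. Genomic background was estimated from counts per kilobase of exon on 1821 chemosensory receptor genes. Alternatives used DESeq2 1.42.0 and limma 3.58.1, and the steps were tested on simulated data. The floor was 3 counts, 0.114 to 2.39 CPM. Exons and positions are from GENCODE M21, which holds 55111 of the identifiers. The genes named are the members, their counted snoRNA, genes overlapping or starting within 1 kb of a member, the 2 largest and up to 2 of the smallest fold changes of each list of host, snoRNP, decay and pyrimidine-tract genes, the 5 nearest profiles, *Myc*, *Rn7sk*, and of the osteoblast, osteoclast and macrophage markers the most abundant gene and those at 0. *Dkc1* is named as the remaining box H/ACA core protein. Marker lists of leukocytes, endothelium and skeletal muscle had no gene called in 9 tumors. Without M624 and M664, 1 leukocyte marker was called lower. The leukocyte markers summed to 236 to 419 CPM in the p53-driven tumors and 55.2 to 223 CPM in the *Myc*-knockin tumors.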

Additional observations from a re-analysis of the deposited data

Results flagged for a closer look

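Of 120 groups of tumors examined, for each named gene and for the summed levels of the lists, 8 held a tumor whose gap to the others, as a share of the range of log2 CPM, passed the critical value of Dixon's test. Chance flags about 1 in 20 groups, and all 8 were in the p53-driven group. Among the members, *Gas5* in F187 was the highest at 48.6 CPM, with the rest at 39.0 to 40.1 CPM (gap 0.870), and *Snhg3* was counted in F368 alone, with 0.122 CPM from 1 count (gap 1, its value whenever all the rest are 0, so that it carries no information). The members' summed level in F187 was 109.0 CPM against 92.0 to 94.0 CPM (gap 0.877). F187 was also the lowest for *Snhg18*, at 42.7 CPM against 64.8 to 68.2 CPM (gap 0.891), for *Rps2*, at 26.1 CPM against 44.3 to 48.6 CPM (gap 0.849), and for the summed osteoblast markers, at 65477 CPM against 133579 to 141257 CPM (gap 0.927). F331 was the lowest for *Smg8*, at 11.9 CPM against 13.0 to 13.2 CPM (gap 0.840), and the highest for the summed leukocyte markers, at 419 CPM against 236 to 253 CPM (gap 0.878).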

How the results depend on the processing

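Over 158 refits of the 8 tested members, all 158 log2 fold changes were above 0, 124 kept the call or its absence, 16 lost a call and 18 gained one. The members' median log2 fold change ranged from 1.06 to 1.69 (1.16 to 1.48 with 1 tumor left out). The counts of calls were less stable than the direction, at 3 members and 809 genes in all. DESeq2 called 6 members and 2258 genes, limma-voom with quality weights 5 and 1663, a minimum of 10 counts per tumor 6 (of 6 tested) and 1316, a minimum of 1 count 1 and 494, subtraction of background 5 and 1130, and the tumors without the 4 satellite libraries 7 and 4595. Library size alone gave 0 members in edgeR (4 at an unadjusted p under 0.05) and 136 genes, and an adjusted p under 0.01 gave 0 members (7 at an unadjusted p under 0.05) and 2 genes. Leaving out single tumors, the counts ran from 0 to 6 members and from 5 to 1588 genes. The cause of these differences was not tested. Upper-quartile normalization called 626 genes higher and 345 lower, compared with 348 and 461 by TMM. The median log2 fold change of all genes was 0.14 with TMM and 0.03 with library size alone, and the members' median exceeded it by 1.21 and 1.35. No paired analysis was possible because the columns carry no replicate numbers. The floor of 3 counts was highest in M9, at 2.39 CPM. M351 and F187 had fewer total counts, but M9 had the fewest outside the satellite genes (671790).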
